A study of Mus musculus with 10 samples.

Results

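The genes described here are 10 genes of MHC class I antigen presentation, taken by symbol from the 55573 genes of the deposited table. They are the class I heavy chains H2-K1 and H2-D1, their light chain B2m, the peptide transporter subunits Tap1 and Tap2, the loading chaperone Tapbp, the immunoproteasome subunits Psmb8, Psmb9 and Psmb10, and the transactivator Nlrc5. All 10 passed the filter on low values, which kept the 11978 genes that reached 1 CPM in 2 or more libraries. CPM is the authors' scaled read count, the number of reads on a gene per 1000000 reads on all genes of the library.

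The cells were BMDMs, macrophages grown with M-CSF from the bone marrow of wild-type female C57BL/6 mice, and every group was kept in culture for 4 hours after treatment. Each of 5 groups held 2 libraries, called biological replicates in the labels, and nothing further was stated on whether they came from separate mice, so p-values measure the spread between these libraries. One group was given vehicle and another 5 μg polyU, an ssRNA chain of uridines carried into cells by the lipid DOTAP. A further group had PNPi+dG/rG, made up of 1 μM ulodesine, which blocks the guanosine-degrading enzyme PNP, and of deoxyguanosine and guanosine at 5 μM each. The combination (PNPi+dG/rG+polyU) joined these agents at the same amounts, and the last group had R848, a small synthetic agonist of TLR7, at 1 ng/mL. TLR7 is an endosomal receptor with a site for guanosine and a site for ssRNA, so that the combination supplied both natural ligands, while R848 occupies the nucleoside site. One dose of each agent and a single time point were used, which means that the groups compare these treatments as given and not the agents at matched potency. The sample titles name DOTAP only for the groups with polyU, and no group is named as DOTAP alone. In comparisons with vehicle, PNPi+dG/rG or R848, effects of polyU and of its carrier therefore cannot be told apart.

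MHC class I molecules show peptides from a cell's own proteins to CD8+ T cells. Proteasomes cut proteins into peptides, and the immunoproteasome is a form in which Psmb8, Psmb9 and Psmb10 replace the constitutive catalytic subunits Psmb5, Psmb6 and Psmb7. The Tap1 and Tap2 subunits form the pump that carries peptides into the endoplasmic reticulum, where Tapbp (tapasin) bridges the pump to a heavy chain paired with B2m. Nlrc5 is a transcriptional activator of class I genes. In macrophages these genes are known as targets of interferons and of NF-κB.

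Of the members, 7 lie on chromosome 17 (GRCm38), within the MHC. There the Psmb9 gene (17:34181987-34187764, minus strand), the Tap1 gene (17:34187553-34197225, plus strand), the Psmb8 gene (17:34197721-34201454, plus strand) and the Tap2 gene (17:34203527-34216321, plus strand) follow each other. Tapbp (17:33915899-33929292, plus strand), H2-K1 (17:33996017-34000347, minus strand) and H2-D1 (17:35262730-35267499, plus strand) stand apart from that cluster. B2m lies on chromosome 2 (2:122147686-122153083, plus strand), and Psmb10 (8:105935735-105938444, minus strand) and Nlrc5 (8:94434356-94527272, plus strand) lie on chromosome 8.

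Promoter windows of 300 bases, from 250 before to 50 after the start site, were found for 8 of the 10 members in RefSeq (GRCm38.p6), and not for Tap2 and Nlrc5. They were searched on both strands for an interferon response element (GAAA, any 2 bases, GAAA), an interferon gamma activated site (TTCNNNGAA) and a κB site (GGG, any 2 bases, TT, any base, CC). The κB letters stood in 3 member windows, those of H2-K1, H2-D1 and B2m, and in 4.79% of the 32851 promoter windows of all genes. The interferon element stood in the B2m window alone among members, against 3.44% of all windows, and the activated site in that of Psmb8 alone, against 8.3%. A match describes letters and not a bound site. Variants of these letters were not searched, so a window without a match, such as those of H2-K1 and H2-D1 for the interferon element, may still hold such an element. The 250 bases before the start sites of the genes of the class I molecule are shown with these matches in capitals, because these 3 had their highest mean levels as deposited with R848 while the other 7 members had theirs with the combination. The differences between these groups did not pass for H2-K1, H2-D1 and Tap2, and Tap2 and Tapbp turned higher with R848 once libraries were centred on their median. The stretches are 17:34000348-34000597 (minus strand) for H2-K1, 17:35262844-35263093 (plus strand) for H2-D1 and 2:122147437-122147686 (plus strand) for B2m. Start sites here are those of RefSeq, while the gene positions given above came from GENCODE. For H2-D1, Tapbp, Psmb8 and Psmb9 the GENCODE start lies further upstream, and the window searched lies within the GENCODE gene.
H2-K1: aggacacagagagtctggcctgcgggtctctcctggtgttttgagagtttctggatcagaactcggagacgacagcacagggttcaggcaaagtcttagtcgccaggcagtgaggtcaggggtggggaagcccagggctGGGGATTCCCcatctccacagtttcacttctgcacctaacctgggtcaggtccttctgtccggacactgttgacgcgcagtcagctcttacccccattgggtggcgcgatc
H2-D1: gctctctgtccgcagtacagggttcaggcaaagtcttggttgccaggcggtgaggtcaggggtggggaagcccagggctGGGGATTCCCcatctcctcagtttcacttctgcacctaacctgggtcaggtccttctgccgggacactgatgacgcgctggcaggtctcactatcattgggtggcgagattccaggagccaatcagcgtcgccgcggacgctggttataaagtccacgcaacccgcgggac
B2m: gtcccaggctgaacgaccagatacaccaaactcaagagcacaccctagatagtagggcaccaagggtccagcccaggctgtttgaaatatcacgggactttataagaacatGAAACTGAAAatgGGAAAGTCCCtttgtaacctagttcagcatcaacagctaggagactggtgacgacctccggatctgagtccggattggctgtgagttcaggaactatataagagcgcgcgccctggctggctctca
The windows of H2-K1 and H2-D1 shared an identical run of 47 bases that holds the κB letters GGGGATTCCC. In B2m the interferon element comes first and the κB letters, read here as the reverse complement GGAAAGTCCC, follow 3 bases later.

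Tap1 and Psmb9 are read in opposite directions from RefSeq start sites 226 bases apart. The sequence before the Tap1 start site (17:34187306-34187555, plus strand) is shown because the pair shares it but responded differently to R848, and its capitals mark the 225 bases between both start sites.
Tap1: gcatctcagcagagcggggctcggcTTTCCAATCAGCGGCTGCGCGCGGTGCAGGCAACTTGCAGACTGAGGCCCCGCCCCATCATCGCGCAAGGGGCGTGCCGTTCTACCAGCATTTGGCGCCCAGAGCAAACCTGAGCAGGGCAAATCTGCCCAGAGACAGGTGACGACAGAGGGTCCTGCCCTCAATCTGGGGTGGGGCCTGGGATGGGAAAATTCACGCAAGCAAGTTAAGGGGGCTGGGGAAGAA
The 3 motifs were not found in this shared stretch.

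In vehicle-treated BMDMs the members spanned a wide range of levels. Per kilobase of exon, which allows genes to be compared roughly, the mean level was highest for B2m at 3134 CPM per kb, followed by H2-D1 at 775 and H2-K1 at 441. Tapbp followed at 126, and Psmb8, Psmb10, Tap2, Tap1, Psmb9 and Nlrc5 lay between 43.4 and 5.92 CPM per kb. Transcripts of the class I molecule itself were therefore abundant before any treatment, and those of the peptide supply were scarcer.

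Read depth was ample for every member. The libraries held between 14128124 and 38392597 reads on genes, and a member had at least 462 reads in each of them. Macrophage markers summed to between 15196 and 18027 CPM in all 10 libraries, most of it Lyz2. Single markers moved within that sum. With R848, 2 of 8 were higher and 5 lower, near the 19.2% and 62.9% of all tested genes. With the combination, 3 were higher and 5 lower, where 22.2% of all tested genes were higher and 46.7% lower. Mertk went from 40.3 and 40.6 CPM in vehicle to 5.36 and 5.66 CPM with R848, and Cd14 from 466 and 482 CPM to 2985 and 3136 CPM. In contrast, T cell, NK cell, B cell and dendritic cell markers were each at or below 0.99 CPM in sum. Fibroblast markers summed to 132 and 139 CPM in the R848 libraries and to 3.61 and 4.85 CPM with the combination, against at most 1.02 CPM elsewhere. Neutrophil and progenitor markers summed to 21.1 and 23.4 CPM in the R848 libraries and to at most 7.57 CPM elsewhere, the R848 values resting on S100a8 with Ly6g at 0 in every library. Endothelial markers, mostly Kdr and Vwf, summed to 64.5 and 69.8 CPM with R848, 143 and 143 CPM with the combination, and 207 CPM or more elsewhere. The part of other cells in the results was not tested. In bulk RNA, a change in the number of cells of a type and a change of RNA per cell cannot be told apart.

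**Figure D1:**
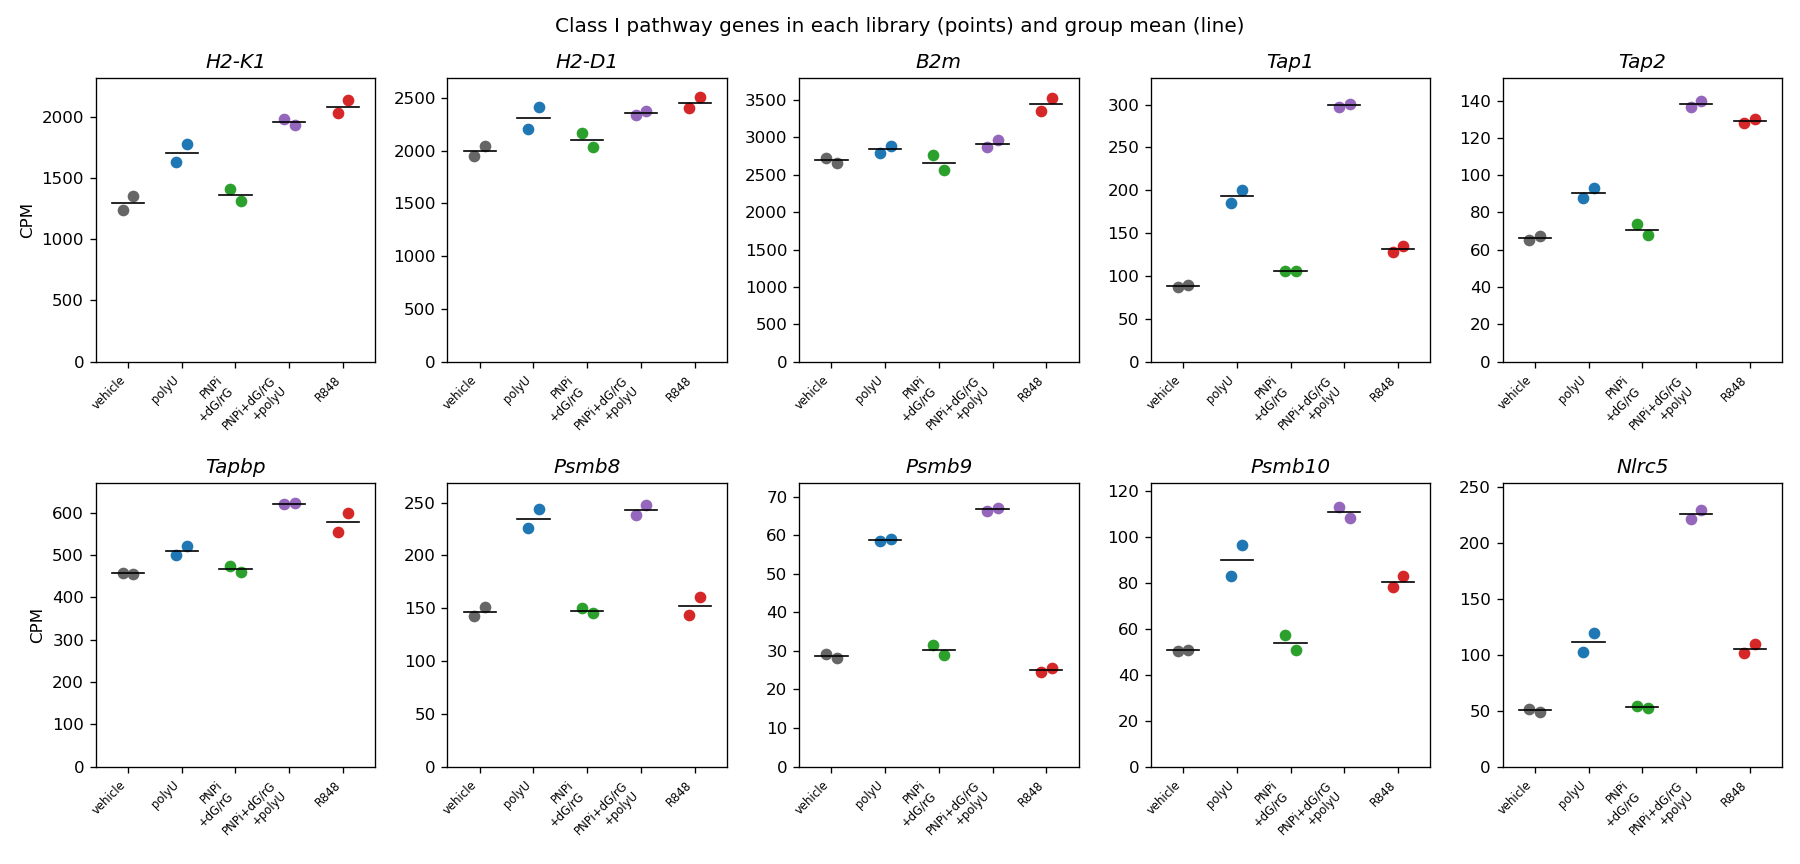
Level of each of the 10 class I pathway genes in CPM (y axis, from 0) in each library (points) with the group mean (line), by treatment (x axis). Nlrc5 and Tap1 were highest with PNPi+dG/rG+polyU, B2m was highest with R848, and Psmb8 and Psmb9 were raised with both polyU-containing treatments.

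The first question was whether polyU with its carrier, guanosines with the inhibitor, or both changed the pathway. PolyU raised 9 of the 10 members over vehicle at an adjusted p under 0.05, where 20.6% of all tested genes were higher and 18.7% lower. Of these 9, Tap1, Psmb9 and Nlrc5 rose at least 2-fold, where 3.21% of tested genes did. The combination raised all 10 members (8 without the filter on low values), where 22.2% of tested genes were higher and 46.7% lower, and 5 of them (Tap1, Tap2, Psmb9, Psmb10 and Nlrc5) rose at least 2-fold, where 8.12% of tested genes did. Guanosines with the inhibitor but no polyU raised 1 member, Tap1, where 0.409% of tested genes were higher and 0.392% lower. That rise was under 2-fold, and 0.0668% of tested genes were called higher and at least 2-fold. The median change of the members was 0.56 on the log2 scale with polyU and 0.89 with the combination, against 0.02 and -0.22 for all tested genes. No member fell with any of these 3 treatments.

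Nlrc5 showed the largest change of any member. Its level was 51.5 and 49.1 CPM in the vehicle libraries, 103 and 120 CPM with polyU, 54.0 and 51.9 CPM with PNPi+dG/rG, 222 and 230 CPM with the combination, and 102 and 109 CPM with R848. The libraries of the combination stood above all others, the polyU and R848 libraries overlapped, and the remaining libraries formed a low group. Nlrc5 rose 4.49-fold with the combination (log2 change 2.17 ± 0.07, SE, limma adjusted p = 1.5e-13), against 2.20-fold with polyU.

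Tap1 followed a similar order. It measured 87.2 and 88.9 CPM in vehicle, 185 and 201 CPM with polyU, 106 and 106 CPM with PNPi+dG/rG, 297 and 301 CPM with the combination, and 127 and 135 CPM with R848. No 2 groups overlapped. Tap1 rose 3.40-fold with the combination (log2 change 1.76 ± 0.05, adjusted p = 4.97e-14) and 2.19-fold with polyU. The rise of 1.21-fold with PNPi+dG/rG alone (adjusted p = 0.021) was no longer called when any 1 of the 4 libraries of that comparison was left out (log2 change 0.26 to 0.28, adjusted p from 0.0722 to 0.215), or without the trend and robust settings of the test (adjusted p = 0.285).

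Tap2, the partner subunit, moved less with polyU. Its levels were 65.0 and 67.3 CPM in vehicle, 87.9 and 92.9 CPM with polyU, 73.7 and 67.8 CPM with PNPi+dG/rG, 136 and 140 CPM with the combination, and 128 and 130.1 CPM with R848. Thus the polyU libraries lay midway and those of the combination and R848 were high. The rise over vehicle was 2.09-fold with the combination (adjusted p = 7.81e-11) and 1.37-fold with polyU. Tapbp moved in the same direction by less, from 458 and 456 CPM in vehicle to 499.7 and 521 CPM with polyU and 619.9 and 623 CPM with the combination, a rise of 1.36-fold with the latter. The rise of Tapbp with polyU, 0.16 on the log2 scale, was not called without polyU replicate 2 (0.13, adjusted p = 0.0713).

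The immunoproteasome subunits had most of their rise with polyU and its carrier, without PNPi+dG/rG. Psmb9 measured 29.2 and 28.3 CPM in vehicle, 58.5 and 59.1 CPM with polyU, 31.5 and 29.1 CPM with PNPi+dG/rG, and 66.3 and 67.2 CPM with the combination. Psmb9 was 2.04-fold higher than vehicle with polyU and 2.32-fold higher with the combination. Psmb8 measured 142 and 151 CPM in vehicle, 226 and 244 CPM with polyU, and 238 and 248 CPM with the combination, so that the last pair of groups overlapped. Psmb10 measured 50.5 and 50.9 CPM in vehicle, 83.1 and 96.9 CPM with polyU, and 113 and 108 CPM with the combination, a 2.19-fold rise with the last.

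The genes of the class I molecule rose by less than 2-fold. H2-K1 measured 1241 and 1353 CPM in vehicle, 1633 and 1776 CPM with polyU, and 1981 and 1937 CPM with the combination, and rose 1.31-fold and 1.51-fold. H2-D1 measured 1949.6 and 2047 CPM in vehicle, 2202 and 2409 CPM with polyU, and 2341 and 2371 CPM with the combination, with a log2 rise of 0.21 and 0.24, both lost without the filter on low values (adjusted p = 0.174 and 0.0647). B2m measured 2729 and 2661 CPM in vehicle, 2789 and 2890.1 CPM with polyU, and 2866 and 2969 CPM with the combination. Its log2 change of 0.08 with polyU (95% interval -0.01 to 0.16) did not pass, and that of 0.11 with the combination (adjusted p = 0.0217) was lost without the filter (adjusted p = 0.352), without the trend and robust settings (adjusted p = 0.115), without vehicle replicate 2 (0.096, adjusted p = 0.118) and without replicate 2 of the combination (0.089, adjusted p = 0.162). H2-K1 and H2-D1 carry stretches in common with each other and with other heavy chains: 9.63% of the 50-base windows of H2-K1 transcripts and 12.8% of those of H2-D1 also occur in transcripts of another gene, and how the authors counted such reads was not given in the sources used here.

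**Figure D2:**
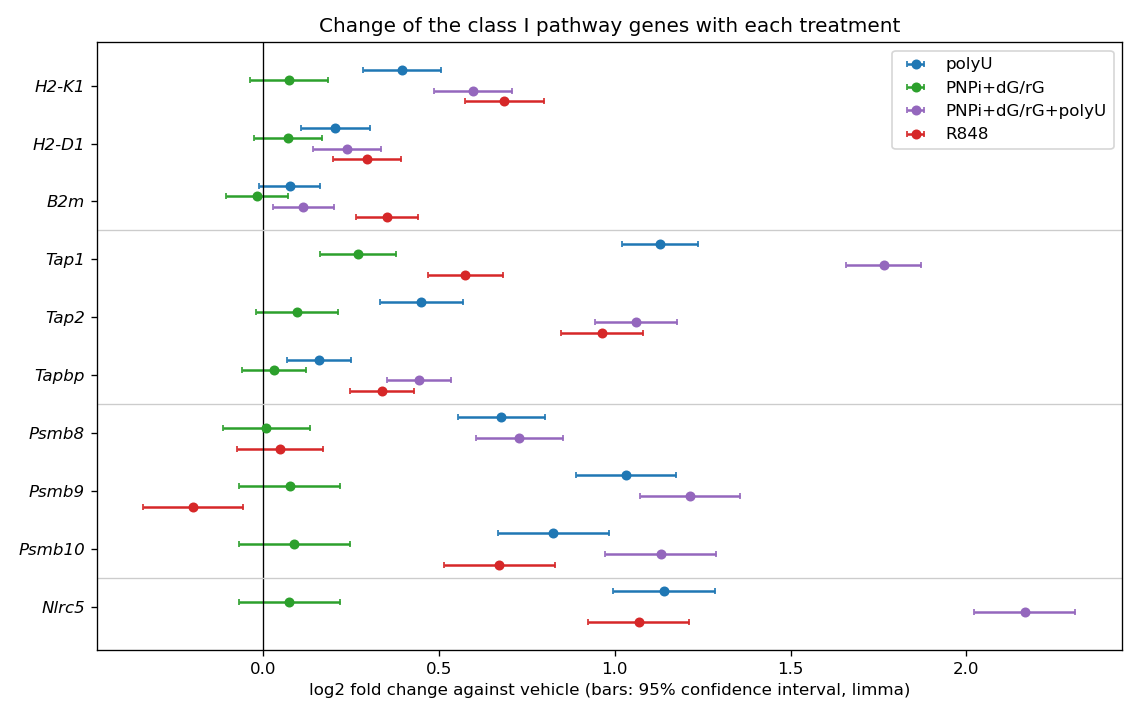
Log2 fold change against vehicle (x axis) of each class I pathway gene (y axis) for 4 treatments (colours), as limma estimates (points) with 95% confidence intervals (bars). With PNPi+dG/rG+polyU the changes ran from 0.11 for B2m to 2.17 for Nlrc5, whereas with R848 Psmb9 stood at -0.20, a value that turned to 0.40 when libraries were centred on their median.

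The next question was what guanosines with the PNP inhibitor added to polyU. Against polyU alone, the combination raised 7 members and lowered none, where 15.8% of tested genes were higher and 47.5% lower. Nlrc5 alone rose at least 2-fold here, where 5.29% of tested genes did. The added rise was 2.04-fold for Nlrc5 (adjusted p = 2.88e-09), 1.55-fold for Tap1 and 1.53-fold for Tap2, and it was smaller for Psmb10, Tapbp, H2-K1 and Psmb9. The call for Psmb9 (0.18 on the log2 scale) was lost when any library of either group was left out (0.17 to 0.19), and that for H2-K1 (0.20) without polyU replicate 1 (0.14, adjusted p = 0.0506). For Psmb8 the log2 difference was 0.05 (95% interval -0.07 to 0.17), for B2m 0.04 (-0.05 to 0.13) and for H2-D1 0.03 (-0.06 to 0.13), and these 3 did not pass. The median of all tested genes fell by 0.24 on the log2 scale in this comparison, and with each library centred on its median all 10 members were called higher. The share of all tested genes called in centred libraries was not computed, here or below. Centred counts therefore have no background beside them.

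The interaction, in which the log2 change between groups with and without PNPi+dG/rG in the absence of ssRNA is subtracted from that in its presence, tested whether the combination exceeded the product of its parts. It was positive for 4 members, Nlrc5 (0.95 ± 0.10 on the log2 scale, adjusted p = 8.63e-07), Tap2 (0.51 ± 0.08), Tap1 (0.37 ± 0.07) and Tapbp (0.25 ± 0.06), where 11.8% of tested genes passed with a positive sign and 38.9% with a negative one. As deposited, the peptide pump, its chaperone and the transactivator were thus the members called with more than a multiplicative response. Differences in the interaction between members were not tested. For the other 6 members the estimates ran from -0.04 for H2-D1 to 0.22 for Psmb10 and did not pass, whereas all 10 members were called higher once libraries were centred (0.25 for H2-D1). As deposited, Psmb10 was called without polyU replicate 2 (0.33) or PNPi+dG/rG replicate 1 (0.30), and H2-K1 without vehicle replicate 1 (0.19). The interaction and the comparisons with vehicle share libraries, so they are not independent of each other.

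R848 gave another pattern. Of the 10 members, 8 were higher than in vehicle and 1 was lower, where 19.2% of tested genes were higher and 62.9% lower. Of the 8, Nlrc5 alone rose at least 2-fold, where 8.89% of tested genes did. The median of all tested genes was -0.50 on the log2 scale in this comparison, against 0.46 for the members. CPM is a share of the library, so the values are given as deposited and also, where the direction depends on it, with libraries centred on the median of tested genes.

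The class I molecule and Tap2 were high with R848. B2m measured 3356 and 3527 CPM, above every other library, and rose 1.28-fold over vehicle (adjusted p = 8.79e-07). H2-K1 measured 2032 and 2140.0 CPM, above all libraries of other groups, and rose 1.61-fold, while H2-D1 measured 2398 and 2504 CPM and rose 1.23-fold. Tap2 rose 1.95-fold, Psmb10 1.59-fold with 78.3 and 83.1 CPM, and Nlrc5 2.10-fold, and Tap1 rose only 1.49-fold. Tapbp, at 555 and 600.0 CPM, rose by 0.34 on the log2 scale.

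The remaining immunoproteasome subunits did not follow. Psmb8 measured 143 and 160.3 CPM with R848, overlapping vehicle, with a log2 change of 0.05 (95% interval -0.08 to 0.17, adjusted p = 0.451). Psmb9 measured 24.5 and 25.6 CPM, below every other library, and was 0.87-fold of vehicle (adjusted p = 0.0125). Psmb9 was not called lower without the filter on low values (adjusted p = 0.139), or when vehicle replicate 1 (adjusted p = 0.061) or R848 replicate 1 (adjusted p = 0.0786) was left out, and in centred libraries it was higher, by 0.40, and Psmb8 by 0.64. In centred libraries all 10 members were called higher with R848, and Psmb9 kept the smallest rise and Nlrc5 the largest (1.66).

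The combination and R848 were then compared directly, which asks whether the natural ligand pair and the synthetic agonist raise the same class I genes. Of the members, 6 were higher with the combination and 1, B2m, was lower, where 53.9% of tested genes were higher and 16.9% were lower, so the count itself lies near the background. Psmb9, Tap1 and Nlrc5 were at least 2-fold higher, where 16.9% of tested genes were. Psmb9 was 2.66-fold higher (adjusted p = 4.82e-11), Tap1 2.28-fold, Nlrc5 2.14-fold and Psmb8 1.60-fold, and all 4 were also higher in centred libraries, by 1.03, 0.81, 0.72 and 0.30 on the log2 scale. B2m was lower by either scaling (-0.24 as deposited, -0.62 centred). Tap2 (0.10, 95% interval -0.02 to 0.21) and H2-K1 (-0.09, -0.20 to 0.02) did not pass as deposited, nor did H2-D1 (-0.06). Tapbp (0.11, adjusted p = 0.0352) was not called without either library of the combination (0.11 and 0.10) or R848 replicate 1 (0.051). Once centred, Tap2 and Tapbp turned lower (-0.29 and -0.28), H2-K1 (-0.47) and H2-D1 (-0.44) were called lower, and Psmb10 was no longer called (0.076).

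**Figure D3:**
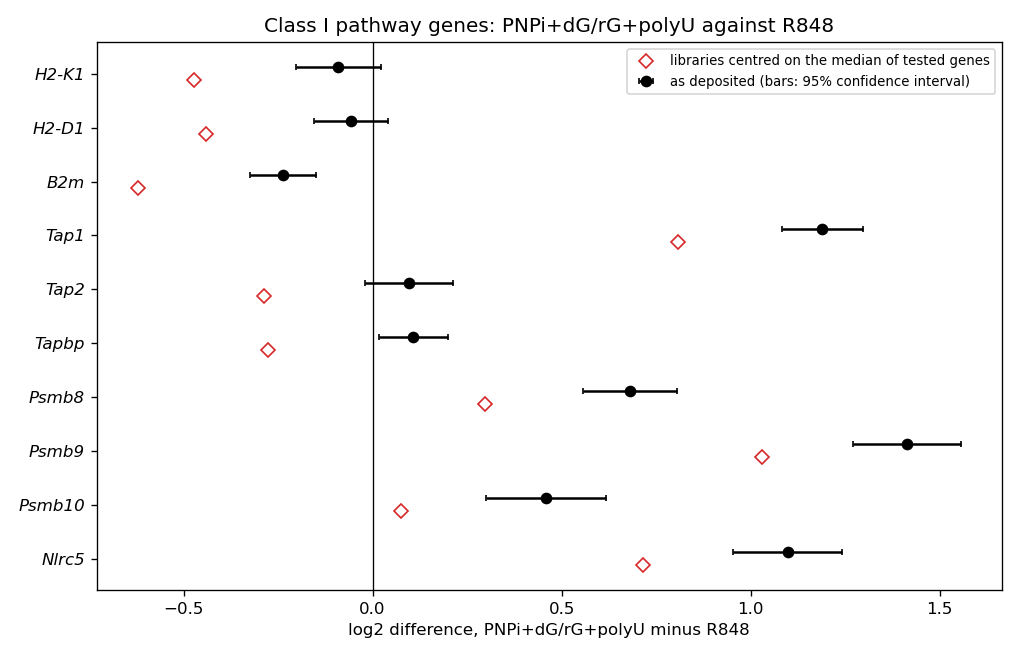
Log2 difference of PNPi+dG/rG+polyU minus R848 (x axis) for each class I pathway gene (y axis), as deposited (filled circles, bars are 95% confidence intervals) and with libraries centred on the median of tested genes (open diamonds). Tap1, Psmb8, Psmb9 and Nlrc5 lie right of 0 and B2m lies left of 0 by both scalings, whereas Tap2 and Tapbp change sides.

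Against polyU alone, R848 gave higher levels of 4 members (H2-K1, B2m, Tap2 and Tapbp) and lower levels of 3 (Tap1, Psmb8 and Psmb9), where 18% of tested genes were higher and 64.6% were lower. Psmb9 fell by 1.23 on the log2 scale, the only member lower by at least 2-fold, where 31.6% of tested genes were, and it was the single member called lower in centred libraries. Tap1 and Psmb8 fell by 0.55 and 0.63 as deposited and stood at 0.084 and 0.0083 in centred libraries. Without polyU replicate 1, Psmb10 (-0.26) and Nlrc5 (-0.18) were also called lower, and without polyU replicate 2 H2-D1 (0.15) was called higher. In centred libraries Psmb10 (0.48) and Nlrc5 (0.57) were called higher, and the counts were 7 members higher and 1 lower.

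Ratios between genes of the same library do not depend on scaling. The ratio of Tap1 to Psmb9, in CPM per kb, was 1.99 and 2.10 in vehicle, 2.11 and 2.271 with polyU, 2.25 and 2.44 with PNPi+dG/rG, 3.00 and 3.00 with the combination, and 3.47 and 3.53 with R848. The neighbours thus rose in near proportion with polyU and separated most with R848, where the ratio was 1.71 times that of vehicle. Their genes as annotated in GENCODE overlap by 212 bases on opposite strands, and the strand setting of the counting was not given in the sources used here.

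Each immunoproteasome subunit was also set against the constitutive subunit it replaces. The ratio of Psmb9 to Psmb6 was 0.0833 and 0.0771 in vehicle, 0.120 and 0.104 with polyU, 0.119 and 0.117 with the combination, and 0.0614 and 0.0600 with R848. With PNPi+dG/rG it was 0.0909 and 0.0872. The ratio was thus above both vehicle libraries with polyU and the combination, by less with PNPi+dG/rG, and below them with R848. The ratio of Psmb8 to Psmb5 was 1.38 and 1.49 in vehicle, 1.82 and 1.86 with the combination, and 1.37 and 1.61 with R848, where it spanned the vehicle values. For Psmb10 to Psmb7 the values were 1.25 and 1.21 in vehicle and 1.92 and 1.89 with both the combination and R848. Against vehicle, the mean ratio with R848 was thus 1.04 times for Psmb8 to Psmb5, 0.757 times for Psmb9 to Psmb6 and 1.55 times for Psmb10 to Psmb7. With 2 libraries against 2, a two-sided exact permutation test cannot give a p below 0.333, so the ratios are given as a description.

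**Figure D4:**
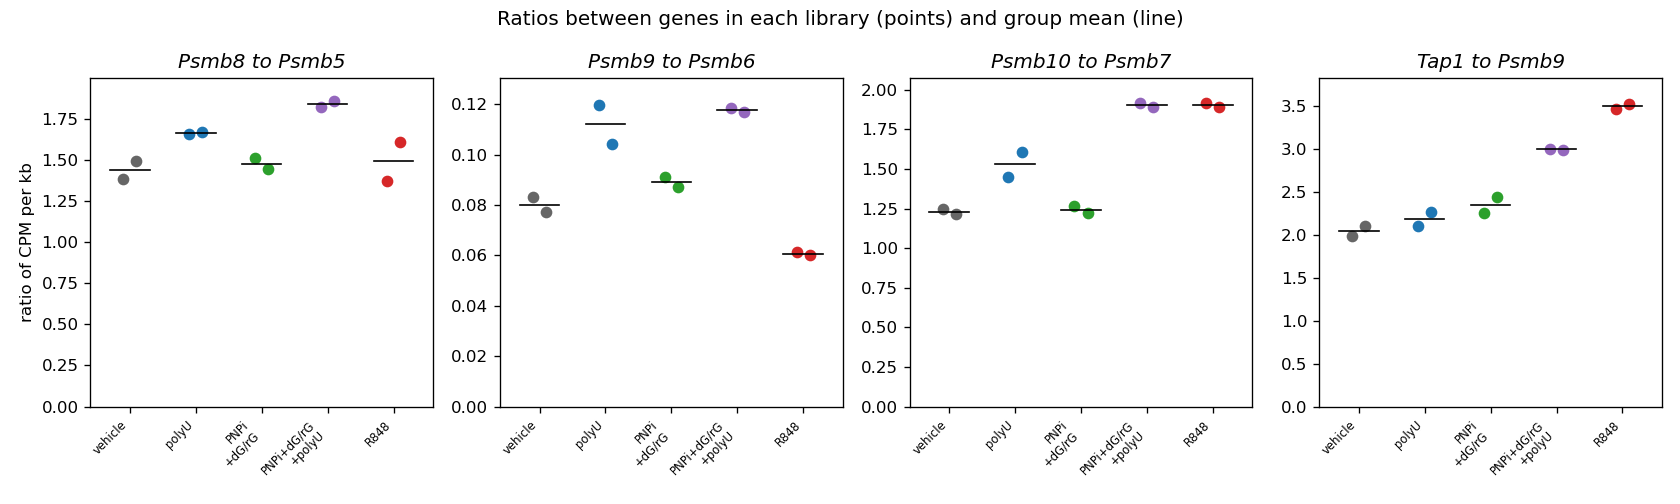
Ratio of CPM per kb between 2 genes (y axis, from 0) in each library (points) with the group mean (line), by treatment (x axis). Psmb9 to Psmb6 was lowest with R848 (0.0614 and 0.0600), and Tap1 to Psmb9 was highest with R848 (3.47 and 3.53).

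The pathway around the members was read from lists of 53 other genes, 49 of which passed the filter. PolyU raised 30 and lowered 7 of them, the combination raised 30 and lowered 9, PNPi+dG/rG raised 1, and R848 raised 17 and lowered 18. Over all tested genes the shares were 20.6% higher and 18.7% lower with polyU, 22.2% and 46.7% with the combination, and 19.2% and 62.9% with R848, and these shares are the background for each list that follows. In centred libraries the counts were 29 higher and 8 lower with polyU, 38 and 4 with the combination, and 39 and 5 with R848. The shares above are of values as deposited and are no background for centred counts, in this list or in those that follow. The median log2 change of the list was 0.42 with polyU, 0.42 with the combination and 0.04 with R848.

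Of the other class I and class I-like heavy chains, 11 of 15 were tested, and 9 rose and 1 fell with polyU, 9 rose and 1 fell with the combination, and 7 rose and 2 fell with R848 (9 and 2 in centred libraries), where 20.6%, 22.2% and 19.2% of all tested genes were higher. H2-Q7, a nonclassical Qa-2 chain, measured 18.3 and 18.4 CPM in vehicle, 34.5 and 39.6 CPM with polyU, 61.1 and 62.8 CPM with the combination, and 128 and 136 CPM with R848. Both H2-Q7 (7.16-fold) and its close relative H2-Q6 (6.88-fold) rose most with R848, and both were lower with the combination than with R848, by 1.09 and 0.95 on the log2 scale. H2-T22, whose product is recognised by γδ T cells, measured 103 and 101 CPM with the combination and 45.8 and 50.3 CPM with R848, a difference of 2.13-fold. Its relatives H2-T10 and H2-T24 also rose with the combination, by 1.90 and 1.12 on the log2 scale, while H2-T24 with R848 stood at -0.05 as deposited and 0.55 centred. H2-M2 rose 15.6-fold with the combination and 8.34-fold with R848, and H2-Q4 rose with all 3 stimuli. Heavy-chain genes resemble each other in sequence, so reads may have been split between them.

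Some class I-like genes went the other way. Mr1, which presents vitamin B metabolites to MAIT cells, measured 16.2 and 16.9 CPM in vehicle, 5.38 and 3.80 CPM with the combination and 1.86 and 1.81 CPM with R848, and fell with polyU by 0.70, a call lost without polyU replicate 1 (-0.54, adjusted p = 0.0507). Its fall of 3.17 on the log2 scale with R848 was 2.58 in centred libraries. Cd1d1, which presents lipids to NKT cells, fell by 1.34 with R848. Both kept their direction in centred libraries.

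Of 9 genes of peptide loading and trimming, 2 rose and 6 fell with R848, which lies near the 19.2% and 62.9% of all tested genes, and in centred libraries 6 rose and 3 fell. The 3 that were lower by both scalings were Calr and Pdia3, chaperones of the loading complex in the endoplasmic reticulum, and Thop1, a cytosolic peptidase that degrades peptides. Pdia3 and Calr fell by 0.99 and 0.89 on the log2 scale as deposited and by 0.39 and 0.30 centred, and Thop1 by 1.16 and 0.56. Tapbpl, a relative of tapasin, rose by 0.73 with R848 and by 0.90 with the combination. With R848, Tapbp and Tapbpl thus rose while Calr and Pdia3 fell. With the combination, Thop1 fell by 0.47 and Calr by 0.19, the latter at 0.02 centred, and Pdia3 did not pass. Calr, Pdia3 and Tapbpl were chosen for naming after their values were seen.

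Among the proteasome genes, all 14 constitutive 20S subunits rose with polyU and with the combination, whereas with R848 Psma2, Psma3, Psma6 and Psmb6 rose, Psma1, Psmb1 and Psmb2 fell, and the other 7 did not pass, where 19.2% of all tested genes were higher and 62.9% lower. The background of higher genes was 20.6% with polyU and 22.2% with the combination. The call of Psmb6 (0.20) was lost without vehicle replicate 1 (0.17) or R848 replicate 2 (0.16). In centred libraries 13 of the 14 were called higher with polyU and all 14 with the combination and with R848. These subunits, other than Psma6 and Psmb6, were named after their values were seen. With the combination the replaced subunits Psmb5, Psmb6 and Psmb7 rose by 0.37, 0.66 and 0.50 on the log2 scale. Psma6, a structural subunit of the core, measured 470.0 and 482 CPM with R848 against 115 and 119 CPM in vehicle, a 4.06-fold rise. Of the activator that opens the core, Psme2 rose by 1.61 with the combination and 1.49 with R848, and its partner Psme1 by 0.61 and 0.37.

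Of 10 regulators of class I genes, Irf1, Rfx5 and Ciita rose with the combination and Rfxap and Nfya fell, where 22.2% of all tested genes were higher and 46.7% lower. In centred libraries 7 rose and 2 fell with the combination. With R848 Irf1 and Rfx5 rose, and Irf2, Rfxap, Rfxank, Nfya and Ciita fell as deposited, whereas 6 rose and none fell in centred libraries. Ciita, the class II transactivator, Rfxap, Rfxank, Nfya and Irf2 were named after their values were seen. Irf1, an interferon-induced transcription factor that drives class I and immunoproteasome genes, measured 21.5 and 22.2 CPM in vehicle, 102 and 115 CPM with polyU, 27.6 and 29.6 CPM with PNPi+dG/rG, 261 and 242 CPM with the combination, and 63.0 and 69.4 CPM with R848. The groups did not overlap. Irf1 was the pathway gene outside the members that passed with PNPi+dG/rG alone (1.31-fold, adjusted p = 0.0193), a call lost without the trend and robust settings (adjusted p = 0.316), without either vehicle library (0.37 and 0.41) and without PNPi+dG/rG replicate 2 (0.34). Rfx5, a DNA-binding partner of Nlrc5 at class I promoters, rose by 1.55 with the combination and 0.46 with R848.

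**Figure D5:**
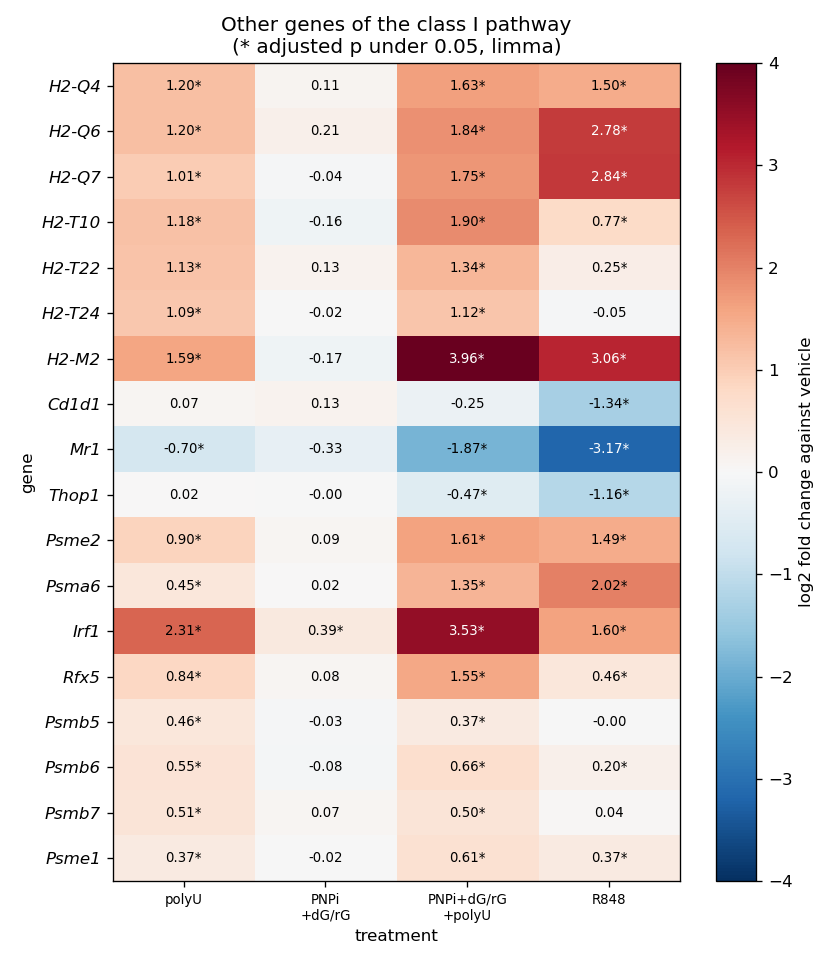
Log2 fold change against vehicle (colour scale and printed values) of other class I pathway genes (y axis) with each treatment (x axis), with an asterisk where the limma adjusted p was under 0.05. Of the 4 treatments, R848 had the highest values of H2-Q6 and H2-Q7 (2.78 and 2.84) and PNPi+dG/rG+polyU that of Irf1 (3.53), and the R848 values of H2-T24 and Psmb5 turned positive when libraries were centred.

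The members also differed in how they varied over the 10 libraries. Psmb8 and Psmb9 varied together (Pearson r = 0.97 over 10 libraries on the log2 scale), as did Tap2 and Tapbp (r = 0.982) and Psmb10 and Nlrc5 (r = 0.975). As deposited, B2m varied apart from the first pair, with r = 0.0147 to Psmb8 and -0.18 to Psmb9. Correlations here and below are of values as deposited and were not computed in centred libraries. In centred libraries B2m, Psmb8 and Psmb9 changed by 0.95, 0.64 and 0.40 with R848 against vehicle. With polyU the centred changes were 0.03, 0.63 and 0.99. Libraries of a treatment group share their condition, so the correlations describe 5 conditions more than 10 independent points.

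Over 8444 genes whose mean reached 10 CPM, those most like Tap1 were Trafd1 (r = 0.9973), Rnf213, Blvrb, Phf11b and Gm12250. Those most like Nlrc5 were Helz2 (r = 0.9964), Ifi204, Il15, Parp9 and Parp8. For H2-K1 they were Mif4gd (r = 0.9897), Ass1, Mrpl52, Ptpn6 and Relb.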

How the data were processed

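RNA of 10 BMDM libraries was measured by stranded poly(A) RNA-seq in 50 bp single reads on a HiSeq 3000. Per the labels and the study's methods, the authors demultiplexed with bcl2fastq 2.19.1.403, mapped reads with STAR 2.27a to GRCm38, used Ensembl release 97 and deposited CPM with 0.0001 added to every value. The counting rule was not given in the sources used here. Low values rise in equal steps of 1 read, which gave each library's depth, and 3 reads were worth at most 0.212 CPM. Intervals cover the spread between libraries only.

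Log2 of the deposited CPM was tested with limma 3.58.1 (R 4.3.3, statmod 1.5.0) in 1 fit of all 5 groups, with eBayes trend and robust settings, on genes that reached 1 CPM in 2 or more libraries. P-values were adjusted by Benjamini-Hochberg over the 11978 genes within each comparison, and "passed" means under 0.05. Log2 changes of these genes are on the scale that carries the offset. The script was tested on simulated data for polyU against vehicle, with 100 genes changed by 0.5 and 100 by 1 on the log2 scale. It recovered 85 and 100 of these, with 21 false calls among 11544 tested genes. False calls thus made up more than 0.05 of all calls. The simulation used vehicle means and the same spread setting for every gene. It held no shift of most genes such as that seen with R848. With no change simulated it made 1 call. Smaller changes were not simulated. Exon lengths and positions came from GENCODE release M21, and promoters from RefSeq.

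Members and lists were chosen with earlier results of these data known. All members were named, with other pathway genes that passed and changed at least 2-fold against vehicle in a treated group, and Psmb5, Psmb6, Psmb7, Psme1, Psme2, Irf1 and Rfx5, and 1 further gene fixed for naming is not reported here. For Tap1, H2-K1 and Nlrc5 the 5 most correlated genes were named. Groups and replicate numbers came from the sample titles. Alternatives were pseudocounts of 0.1 and 1, no filter, a filter on the mean, median-centred libraries, plain eBayes, only the groups compared, a replicate block, and leaving out each library.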

Additional observations from a re-analysis of the deposited data

Results flagged for a closer look

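Of the members, 4 showed a different effect of PNPi+dG/rG with polyU than without it, by the interaction term of the limma fit over all genes. Among all tested genes, 11.8% passed with a positive interaction and 38.9% with a negative one. In centred libraries all 10 members were called with a positive interaction. The interaction on the log2 scale was 0.95 for Nlrc5 (adjusted p = 8.63e-07), 0.51 for Tap2 (adjusted p = 6.12e-05), 0.37 for Tap1 (adjusted p = 0.000581) and 0.25 for Tapbp (adjusted p = 0.00269). Levels in both libraries of the combination were above those of every polyU library for these 4 genes. The same held for H2-K1, Psmb9 and Psmb10, whose interaction did not pass as deposited. Groups of 2 libraries were too small for a check of single libraries that stand apart.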

How the results depend on the processing

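Counts of members called kept within 1.5 times under pseudocounts of 0.1 and 1 and a filter on the mean. PNPi+dG/rG against vehicle called 0 members with plain eBayes, and 0 to 1 when a library was left out (0 without vehicle replicate 1 or 2 or PNPi+dG/rG replicate 1 or 2). R848 against vehicle lowered 0 members without the filter, 0 centred and 0 to 1 when a library was left out. The combination against R848 lowered 5 members centred and 2 in a fit of only the groups compared. R848 against polyU raised 7 and lowered 1 centred, and lowered 3 to 5 when a library was left out (5 without polyU replicate 1). The interaction was positive for 10 members centred. The cause was not tested.

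Centring turned these log2 changes. Against vehicle, Thop1 with polyU became -0.021. With PNPi+dG/rG, Tapbp became -0.0027, Psmb8 -0.024 and Psma6 -0.013. With R848, Psmb9 became 0.40, H2-T24 0.55 and Psmb5 0.59. The combination against R848 became -0.29 for Tap2 and -0.28 for Tapbp. R848 against polyU became 0.084 for Tap1, 0.0083 for Psmb8, 0.48 for Psmb10 and 0.57 for Nlrc5, and the interaction of H2-D1 became 0.25.

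Leaving out 1 library turned changes that had not passed, with these ranges. With polyU, Cd1d1 ran from -0.0041 to 0.14 and Thop1 from -0.11 to 0.15. With PNPi+dG/rG, B2m ran from -0.074 to 0.038, Psmb8 from -0.035 to 0.052, H2-Q7 from -0.13 to 0.052, H2-T24 from -0.10 to 0.059, Thop1 from -0.016 to 0.0070, Psma6 from -0.0058 to 0.044 and Psme1 from -0.083 to 0.051. With R848, Psmb8 ran from -0.032 to 0.13, H2-T24 from -0.18 to 0.081, Psmb5 from -0.035 to 0.031 and Psmb7 from -0.013 to 0.092. The combination against polyU ran from -0.032 to 0.097 for H2-D1 and -0.0051 to 0.11 for Psmb8. R848 against polyU ran from -0.18 to 0.038 for Nlrc5, and the interaction from -0.10 to 0.027 for H2-D1 and -0.013 to 0.098 for Psmb8.

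Samples with the same replicate number did not deviate together (10 pairs, r from -0.286 to 0.109, median -0.023). The main fit did not pair libraries by number. The lowest values were those of PNPi+dG/rG with vehicle (-0.286) and with polyU (-0.273). Whether libraries with unlike numbers belong together was not tested. A replicate block left the counts of members called as they were, 10 with the combination, 9 with polyU and 8 higher with R848 against vehicle. Without the filter, calls were also lost for H2-D1 (polyU and the combination), B2m (the combination), and H2-K1 and Psmb9 (the combination against polyU), and with plain eBayes for Tapbp (polyU, and against R848) and Psmb6 (R848). Tests for read counts were not run, since the values are normalized. Depth did not limit the members, but 2 libraries per group did limit the estimate of their spread.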
